A study of Ovis aries with 6 samples.

Results

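The laminin, nidogen and perlecan genes of the basal lamina were followed across 5 cell types of the Hu sheep ovary: granulosa-, theca-, endothelial-, perivascular- and stromal-like cells. The rule listed 10 genes by symbol, and 9 of them, among 30574 genes of the count tables, are described here: LAMA1, LAMA2, LAMA4 and LAMA5, LAMB1, LAMC1, NID1, NID2 and HSPG2. LAMB2 was not analysed here. Droplet libraries of single ovarian cells came from 6 estrous adult Hu ewes, with 1 ovary and 1 library per ewe. The 3 HLS ewes had a litter size of at least 3, and the 3 LLS ewes had a litter size below 2. Whole dissociated ovary was loaded, so that follicles, vessels and stroma all contributed cells.

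The basal lamina is the thin sheet of matrix on which epithelia, vessel walls, muscle and nerve rest. Its laminins are trimers of an α, a β and a γ chain that assemble at the cell surface, where integrins and dystroglycan bind them. Nidogens and the heparan sulfate proteoglycan perlecan link the laminins to a network of type IV collagen. In the ovary a basal lamina separates the granulosa cells of each follicle from the vascularised theca, surrounds the capillaries, and is remodelled as follicles grow, ovulate or undergo atresia.

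Of 52290 barcodes, 41149 passed the filters and 38873 were kept after the removal of 2276 presumed doublets. Between 5780 and 7322 cells were kept per ewe, with a median depth of 4831 to 9579.5 unique molecular identifiers (UMI) per cell. The 5 types held 2579 granulosa-, 1662 theca-, 16455 endothelial-, 2753 perivascular- and 4009 stromal-like cells, and every ewe gave at least 63 cells of each type. The markers that named the clusters were highest in their own type for all granulosa, endothelial, perivascular and stromal genes and for 5 of 6 theca genes, STAR being the exception. Any pair of libraries shared 13 to 28 barcodes, at most 0.320% of the smaller library. HLS1 stood apart from the other ewes: it gave the lowest level in 33 of the 45 combinations of member and type, and its deviation from the mean of the ewes fell with the genomic span of a gene in RefSeq (ARS-UI_Ramb_v3.0, at least 92.8% of genes matched). Spearman's rho across genes was -0.419 to -0.293 in the 5 types for HLS1, against -0.154 to 0.298 in the other ewes. Genes are not independent replicates, and the part of this difference in the results was not tested. Values without HLS1 are given where it changed a call or a comparison of the litter size groups.

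Levels are UMI of a gene per 10000 UMI of a type, summed per ewe, so that each ewe gives 1 value per gene and type. The level in immune-like cells is given as a rough measure of the signal that RNA from outside a cell can leave. It is rough because depth per cell differed between types. Median depth per ewe was 2254 to 4097 UMI in immune-like and 13176 to 19000 in theca-like cells. Types were compared with edgeR's quasi-likelihood test on the summed counts with the ewe as a block, and p-values were adjusted over all 13912 genes tested. The members and the listed basal lamina genes were kept out of the genes used for clustering. Of 45 comparisons of a member in a type with the mean of the other 4 types, 36 passed an adjusted p of 0.05. The background was high: 53.7% of all genes passed for granulosa-like cells, 59.8% for theca-like, 72.3% for endothelial-like, 51.9% for perivascular-like and 39.7% for stromal-like cells.

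**Figure D1:**
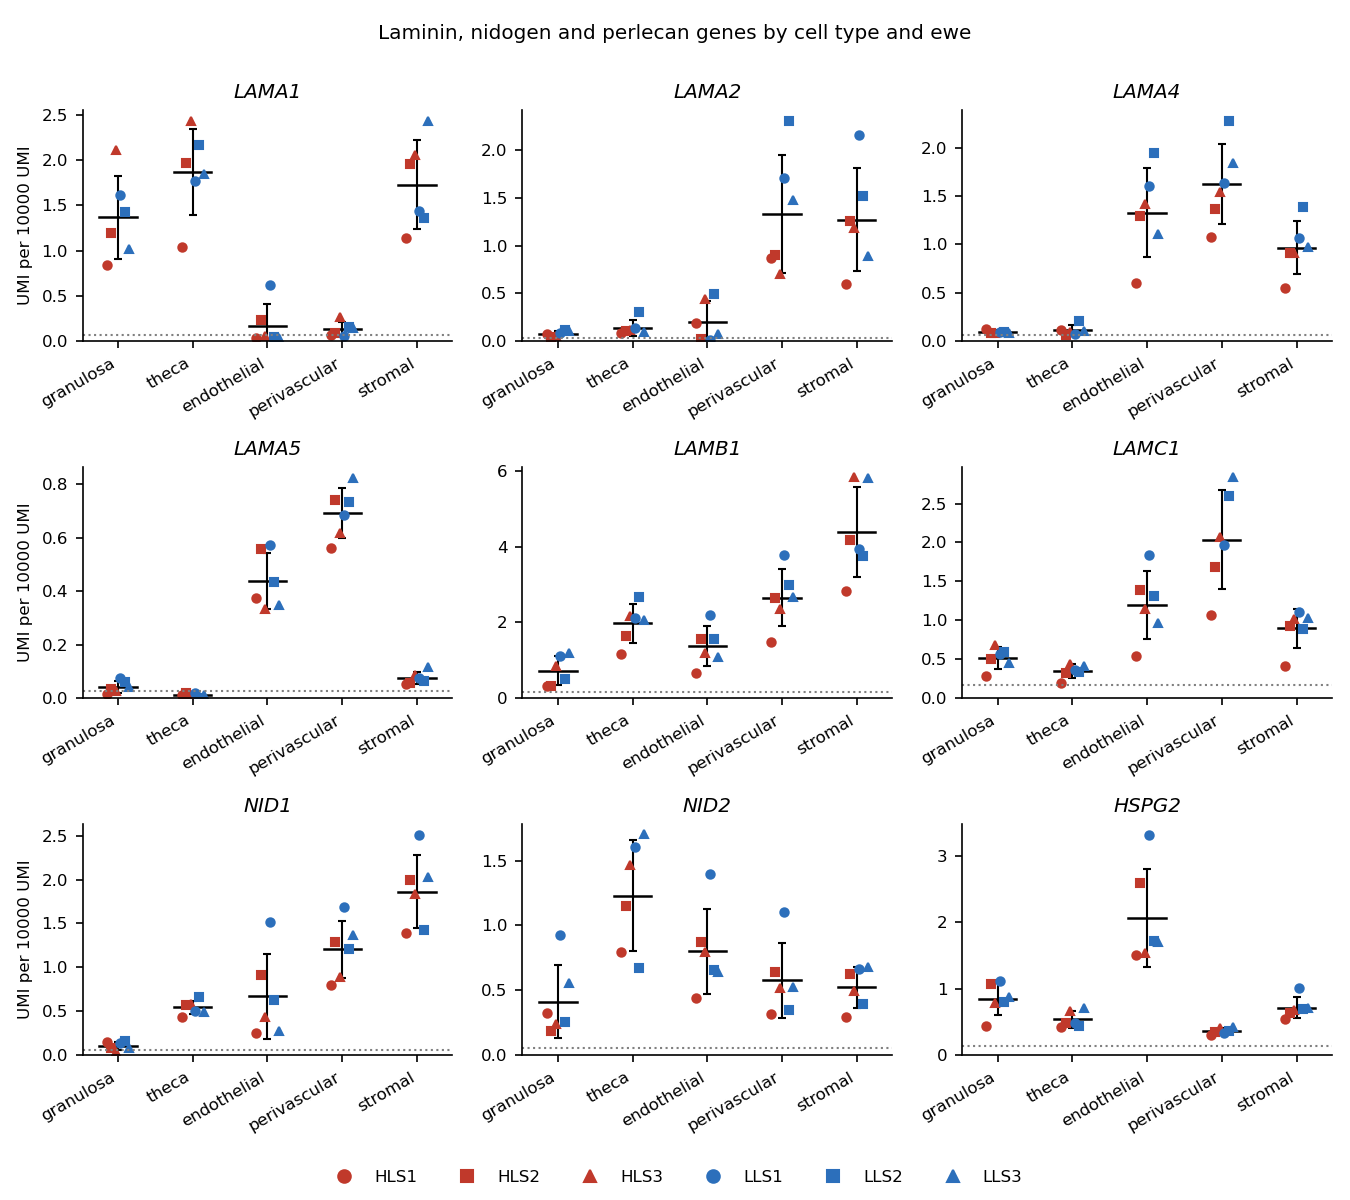
Level of each gene (UMI per 10000 UMI, linear axis from 0) in the 5 cell types, with 1 point per ewe, the horizontal line and bar giving the mean ± SD over 6 ewes and the dotted line the mean level in immune-like cells. LAMA1 is high in granulosa-, theca- and stromal-like cells, LAMA4 and LAMA5 in endothelial- and perivascular-like cells, and HSPG2 in endothelial-like cells.

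LAMA1 encodes the α1 chain, which is known from embryonic and epithelial basal laminae. Its level in theca-like cells ran from 1.04 to 2.43 over the 6 ewes, with a median of 1.91. In stromal-like cells it ran from 1.14 to 2.43 with a median of 1.70, and in granulosa-like cells from 0.836 to 2.12 with a median of 1.31. Every ewe of these 3 types lay above every ewe of the other 2 types, where the levels were 0.0353 to 0.621 in endothelial-like and 0.0555 to 0.265 in perivascular-like cells. Against the mean of the other types, LAMA1 was higher by 2.21 ± 0.32 (log2 fold change ± SE) in theca-like cells (edgeR, adjusted p = 1.43e-06), by 1.96 ± 0.32 in stromal-like cells and by 1.4 ± 0.34 in granulosa-like cells. It was lower in endothelial-like cells (log2 fold change -2.56 ± 0.43) and in perivascular-like cells (-3.01 ± 0.49). The 3 high types were not separated from their neighbours in the order (edgeR, adjusted p = 0.737 for theca- over stromal-like and 0.419 for stromal- over granulosa-like cells).

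LAMA2 encodes the α2 chain, the chain of the basal lamina of muscle and peripheral nerve. In perivascular-like cells its level ran from 0.70 to 2.31 with a median of 1.19, and in stromal-like cells from 0.604 to 2.16 with a median of 1.23. All these values lay above those of every ewe in the other 3 types, of which the highest was 0.497, in the endothelial-like cells of LLS2. Against the mean of the other types LAMA2 was higher in perivascular-like cells (log2 fold change 2.57 ± 0.38, edgeR, adjusted p = 3.06e-06) and in stromal-like cells (2.58 ± 0.38). The difference between these types did not pass (-0.01 ± 0.49, adjusted p = 0.993). LAMA2 was lowest in granulosa-like cells, at a mean of 0.0783 ± 0.0280 (SD, n = 6), which was 2.49 times the level in immune-like cells. The lower level in theca-like cells (log2 fold change -1.43 ± 0.50, edgeR, adjusted p = 0.0164) did not pass without LLS3 (adjusted p = 0.0502).

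LAMA4 encodes the α4 chain, a chain of vessel and mesenchymal basal laminae. Its level was 1.08 to 2.28 in perivascular-like cells (median 1.59), 0.598 to 1.95 in endothelial-like cells (median 1.35) and 0.544 to 1.39 in stromal-like cells (median 0.941). Follicular cells lay far below, at 0.0672 to 0.207 in theca-like and 0.0789 to 0.127 in granulosa-like cells, and no ewe overlapped. The follicular levels were close to that in immune-like cells, whose mean was 0.0625. LAMA4 was higher in perivascular-like cells by 2.17 ± 0.12 against the other types (log2, edgeR, adjusted p = 3.04e-14), in endothelial-like cells by 1.96 ± 0.12 and in stromal-like cells by 1.29 ± 0.13, and it was lower in granulosa-like cells (log2 fold change -3.02 ± 0.19). Perivascular- over endothelial-like cells did not pass (0.17 ± 0.16, adjusted p = 0.372), while endothelial-like cells exceeded stromal-like cells by 0.54 ± 0.16 (adjusted p = 0.00393; 0.0616 with thinned sums). The lymphatic-like cluster held 18.8% of the endothelial-like LAMA4 UMI in 5.26% of the cells. Blood endothelial-like cells alone had a mean of 1.08, against 0.965 in stromal-like cells. They lay below stromal-like cells in HLS1, LLS2 and LLS3, and this pair was not tested.

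LAMA5 encodes the α5 chain, found in most adult epithelial and endothelial basal laminae. All 4 neighbouring pairs of types in its order passed the test, those of granulosa-like cells not when the sums were thinned to equal depth (adjusted p = 0.0605 and 0.126). The level was 0.563 to 0.824 in perivascular-like cells, with a median of 0.708, and 0.335 to 0.574 in endothelial-like cells, with a median of 0.404. It was 0.0526 to 0.117 in stromal-like cells and 0.0169 to 0.0746 in granulosa-like cells, where it came from few UMI. In theca-like cells the mean was 0.0125 ± 0.0072 (SD, n = 6), below the 0.0251 of immune-like cells, and no UMI was counted in LLS2, which allows a level of up to 0.0207 by counting error alone. Theca-like cells were deeper than immune-like cells, so the immune-like level does not fix the background there. The level in theca-like cells is thus not told apart from background. Perivascular-like cells exceeded endothelial-like cells by 0.52 ± 0.16 (log2, edgeR, adjusted p = 0.00704), and endothelial-like cells exceeded stromal-like cells by 2.59 ± 0.18 (adjusted p = 1.85e-12). The lower level in stromal-like cells against the other types (-0.59 ± 0.18, adjusted p = 0.0088) did not pass without HLS2 (adjusted p = 0.0735).

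LAMB1 encodes the β1 chain. It was detected in all types, with the highest level in stromal-like cells at 2.81 to 5.82 (median 4.05). The levels then fell through perivascular-like cells at 1.48 to 3.77 (median 2.65), theca-like cells at 1.16 to 2.67 (median 2.09), endothelial-like cells at 0.671 to 2.20 (median 1.37) and granulosa-like cells at 0.323 to 1.2 (median 0.687). Ranges of neighbouring types overlapped, and the test compared the types within each ewe. Stromal-like cells exceeded perivascular-like cells by 0.81 ± 0.20 (log2, edgeR, adjusted p = 0.0016), and theca-like cells exceeded endothelial-like cells by 0.57 ± 0.19 (adjusted p = 0.0116; 0.0512 without HLS1). Perivascular- over theca-like cells did not pass (0.24 ± 0.20, adjusted p = 0.305). Granulosa-like cells stood lowest, at -1.89 ± 0.18 on the log2 scale against the other types (adjusted p = 2.27e-09).

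LAMC1 encodes the γ1 chain, shared by most laminin trimers. Its level was 1.07 to 2.84 in perivascular-like cells (median 2.02), 0.545 to 1.84 in endothelial-like cells (median 1.23) and 0.406 to 1.11 in stromal-like cells (median 0.975). It was 0.287 to 0.683 in granulosa-like cells (median 0.537) and 0.194 to 0.442 in theca-like cells (median 0.351). All 4 neighbouring pairs of this order passed the test, from 0.63 ± 0.14 between perivascular- and endothelial-like cells (log2, edgeR, adjusted p = 2.68e-04) to 0.38 ± 0.15 between granulosa- and theca-like cells (adjusted p = 0.0431). The last of these was near the threshold and was lost in 11 of 16 alternatives, among them without HLS1, HLS2, HLS3 or LLS2 (adjusted p = 0.0582, 0.123, 0.131 and 0.12). The γ1 and β1 transcripts thus had different orders: theca-like cells lay between perivascular- and endothelial-like cells for LAMB1 and were lowest for LAMC1.

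The nidogens are glycoproteins that bind the laminin γ1 chain and type IV collagen. NID1 was highest in stromal-like cells, at 1.39 to 2.51 with a median of 1.91. It was 0.794 to 1.69 in perivascular-like cells (median 1.25), 0.254 to 1.51 in endothelial-like cells (median 0.528), 0.438 to 0.657 in theca-like cells (median 0.540) and 0.0393 to 0.155 in granulosa-like cells (median 0.112). The granulosa-like values lay below every value of the other types and at a mean 2.01 times that of immune-like cells. The difference between theca- and granulosa-like cells was 2.74 ± 0.31 (log2, edgeR, adjusted p = 7.34e-08), and that between endothelial- and theca-like cells did not pass (adjusted p = 0.904). Stromal-like cells exceeded perivascular-like cells by 0.71 ± 0.24 (adjusted p = 0.0203; 0.0655 without HLS3).

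NID2 had another order, led by theca-like cells at 0.670 to 1.70 with a median of 1.31. Endothelial-like cells followed at 0.440 to 1.4 (median 0.725), perivascular-like cells at 0.317 to 1.11 (median 0.519), stromal-like cells at 0.290 to 0.678 (median 0.558) and granulosa-like cells at 0.186 to 0.925 (median 0.287). The ranges overlapped between types, with LLS1 the highest ewe in endothelial-, perivascular- and granulosa-like cells. Theca-like cells were higher than the mean of the other types by 1.33 ± 0.14 (log2, edgeR, adjusted p = 6.76e-09), and granulosa-like cells were lower (-1.09 ± 0.17, adjusted p = 5.49e-06). Perivascular- over stromal-like cells did not pass (0.02 ± 0.19, adjusted p = 0.964), and stromal- over granulosa-like cells (0.58 ± 0.20, adjusted p = 0.0189) did not pass without HLS2, HLS3 or LLS2 (adjusted p = 0.141, 0.0921 and 0.0557).

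HSPG2 encodes the perlecan core protein, which carries heparan sulfate and binds growth factors. In endothelial-like cells its level ran from 1.51 to 3.32 with a median of 1.72, above every value of the other types. The others were 0.439 to 1.12 in granulosa-like cells, 0.549 to 1.01 in stromal-like cells, 0.422 to 0.710 in theca-like cells and 0.308 to 0.423 in perivascular-like cells. HSPG2 was higher in endothelial-like cells by 1.88 ± 0.11 (log2, edgeR, adjusted p = 2.12e-14) and lower in perivascular-like cells (log2 fold change -1.42 ± 0.15, adjusted p = 5.93e-09). Perivascular-like cells, which had the highest means of LAMA4, LAMA5 and LAMC1, were thus last in HSPG2. For LAMA4 their lead over endothelial-like cells did not pass the test (edgeR, adjusted p = 0.372). Neither pair of neighbours in the order of granulosa-, stromal- and theca-like cells passed the test (edgeR, adjusted p = 0.329 and 0.238). Granulosa- over theca-like cells passed (log2 fold change 0.44 ± 0.16, adjusted p = 0.0306), but not without HLS2 (0.184), without LLS2 (0.0999) or with the ACTA2-led cluster joined to the stromal-like cells (0.0830).

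Over all pairs of types, 75 of 90 member comparisons passed the test, and each share of all genes given here is for the same pair. Granulosa-like cells differed in 6 members from theca-like (43.6% of genes), in 8 from endothelial-like (67.4%), in 9 from perivascular-like (54.7%) and in 7 from stromal-like cells (45.7%). Theca-like cells differed in 7 members from endothelial-like (69.7%), in 8 from perivascular-like (59.2%) and in 7 from stromal-like cells (43.7%). Endothelial-like cells differed in 7 from perivascular-like (58.6%) and in 9 from stromal-like cells (64.3%), and perivascular-like cells in 7 from stromal-like cells (40.8%). In all 7 differences between granulosa- and stromal-like cells the stromal-like cells were higher.

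Granulosa-like cells were lower than the mean of the other types in 7 of 9 members (27.5% of all genes), LAMA1 being the member that was higher (26.3% of all genes) and HSPG2 the one that did not pass. Their median log2 fold change over the 9 members was -1.82, against -0.01 over all genes. Theca-like cells were higher in 2 members, LAMA1 and NID2 (28.4% of all genes), and lower in 5 (31.4%). Perivascular-like cells were higher in 6 members (26.3%) and lower in LAMA1 and HSPG2 (25.6%). Endothelial-like cells were higher in 5 members (37.8%) and lower in LAMA1 and LAMB1 (34.5%). The LAMB1 call was lost without HLS3 or LLS3 (edgeR, adjusted p = 0.0538 and 0.0508). Among the 5 higher members, NID2 was lost with sums thinned to equal depth (log2 fold change 0.27, adjusted p = 0.128). Stromal-like cells were higher in 5 members (20.9%) and lower in LAMA5 (18.8%). The median log2 fold change of the members was negative in theca-like cells (-0.43) and positive in endothelial- (0.47), perivascular- (1.17) and stromal-like cells (1.29), against -0.04 to 0.02 over all genes.

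The α chain genes were then set against each other within each ewe, as shares of their summed UMI. Shares were compared between types and not between genes, since transcripts of different genes are not captured alike. LAMA1 made up 79.2% to 92.8% of the α chain UMI in granulosa-like cells and 80.9% to 91.6% in theca-like cells, but 30.3% to 55% in stromal-like, 1.55% to 22.1% in endothelial-like and 1.36% to 8.48% in perivascular-like cells. LAMA4 made up 50.2% to 70.9% in endothelial-like and 40.1% to 49.3% in perivascular-like cells, without overlap of the ewes. The endothelial-like sums include the lymphatic-like cells, where the LAMA4 level was higher. LAMA2 made up 22.4% to 42.2% in perivascular-like and 20.3% to 45.6% in stromal-like cells, and LAMA5 14.8% to 31.3% in endothelial-like and 13.4% to 24.0% in perivascular-like cells. In 31 of 40 comparisons of a share between types the 2-sided exact sign-flip permutation test over 6 ewes passed an adjusted p of 0.05, and the smallest p that 6 ewes allow is 0.03125. All 31 stood at this smallest p. The shares of a type in an ewe add up to the whole, so that these tests are not independent of each other. The LAMA1 shares of granulosa- and theca-like cells were not separated, with a mean difference of -1.90 percentage points (SD 3.88, higher in 2 of 6 ewes, exact p = 0.313). These shares rest on 125 to 1510 α chain UMI per ewe in granulosa-like and 209 to 1973 in theca-like cells.

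**Figure D2:**
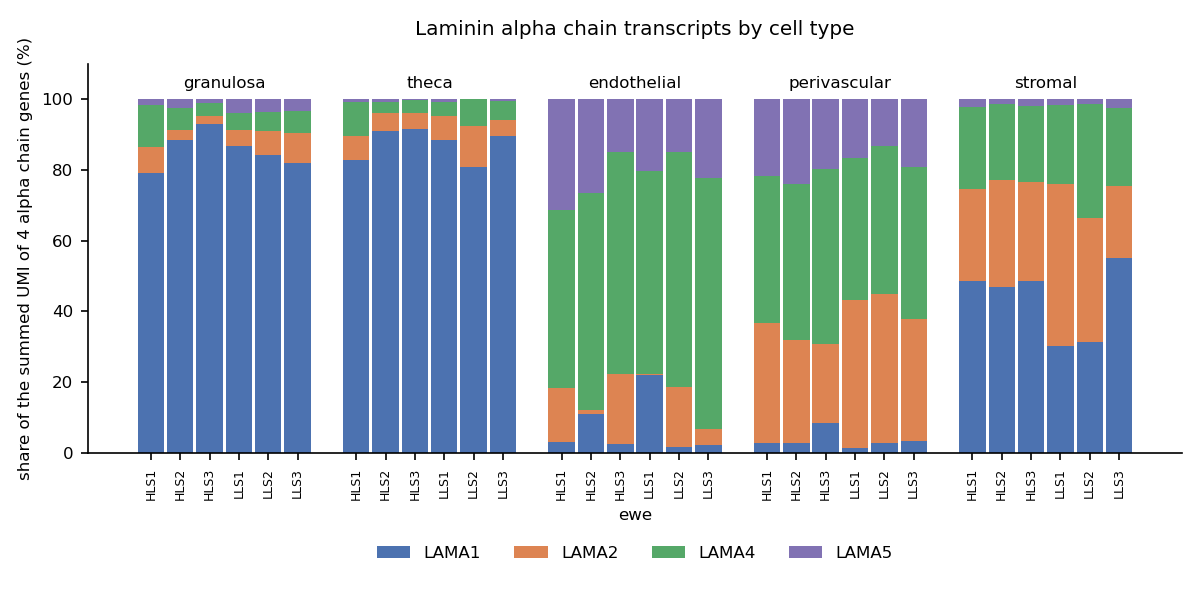
Share of LAMA1, LAMA2, LAMA4 and LAMA5 in their summed UMI (%, stacked to 100) in each of the 6 ewes and 5 cell types. The LAMA1 share is 79.2% to 92.8% in granulosa-like cells and 80.9% to 91.6% in theca-like cells, the LAMA4 share 50.2% to 70.9% in endothelial-like cells, and stromal-like cells lie between.

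Within types, the members differed between clusters, and these differences are given as a description without a test. The 2 stromal-like clusters carried different α chains. The cluster led by PTCH1, LUM and TCF21 (2393 cells) had a LAMA1 level of 2.40, and the cluster led by SERPINF1, DPT and PTGDS (1616 cells) had 0.130. Each ewe showed the gap, with 1.45 to 2.87 in the first and 0.0786 to 0.285 in the second cluster. LAMA4 ran the other way, at 0.727 and 1.57, and higher in the second cluster in all 6 ewes. LAMB1 was higher in the first (5.44 against 2.15), while LAMA2 was 1.24 and 0.990. Among granulosa-like cells, the FST- and IGFBP2-led cluster had the highest LAMA1 (1.80), the INHA-led cluster of lower depth had 0.807, and the proliferating cluster with AMH among its leading genes had 1.05 and the highest HSPG2 of the granulosa-like clusters (1.31).

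**Figure D3:**
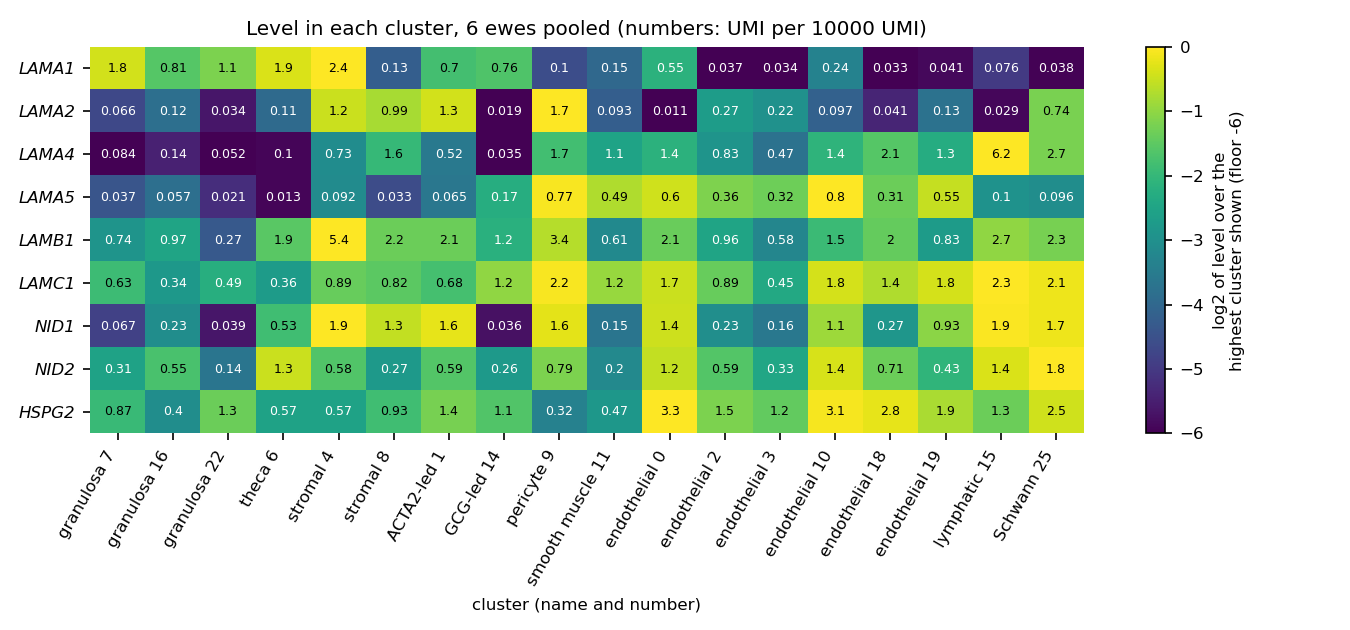
Level of each gene in 18 clusters with the 6 ewes pooled (numbers in the cells, UMI per 10000 UMI), coloured by the log2 ratio to the highest cluster shown. LAMA1 separates stromal-like cluster 4 from cluster 8, and LAMA4 peaks at 6.2 in the lymphatic-like cluster.

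In endothelial-like cells LAMA1 and LAMA2 differed between ewes far more than the other members. LAMA1 was 0.621 in LLS1 and 0.232 in HLS2, and at most 0.0593 in the other 4 ewes. LAMA2 was 0.497 in LLS2, 0.442 in HLS3 and 0.185 in HLS1, and 0.0705, 0.0238 and 0.0096 in LLS3, HLS2 and LLS1. The ewes with high LAMA1 thus had the lowest LAMA2, and neither pattern followed litter size. The make-up of the endothelial-like cells also differed: the ESM1- and APLNR-led cluster, which held 83.6% of the LAMA1 UMI of this type, came mostly from LLS1 (2414 cells) and HLS2 (1999 cells), with 46 to 179 cells in each other ewe. Within that cluster LAMA1 was 0.755 in LLS1 and 0.315 in HLS2, against 0.0183 to 0.109 in the other ewes, where 1 to 24 UMI were counted. Within the ABCG2- and SELP-led cluster, which held 56.3% of the LAMA2 UMI, LAMA2 was 0.720 in LLS2, 0.533 in HLS3 and 0.229 in HLS1, against 0.0224 to 0.0749 in the other ewes, so the gap between ewes was present within a cluster too. The cause was not tested. LLS1 and HLS2 also had the highest HSPG2 of the endothelial-like cells (3.32 and 2.59) and the highest NID1 (1.51 and 0.910). Pooled over ewes, HSPG2 was 3.32 in the ESM1- and APLNR-led cluster and 3.14 in the GJA5- and GJA4-led cluster, though higher in the latter within LLS1 (3.95 against 3.56) and HLS2 (3.4 against 2.96), and 1.21 in the PPP1R1B- and CA4-led cluster, which came mostly from HLS1 (2160 of 3983 cells). The part of this make-up in the differences between ewes was not tested.

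Lymphatic-like endothelial cells (866 cells, led by CCL21, MMRN1 and PROX1) were compared with the blood endothelial-like cells (15589 cells) of the same ewes. Of 9 members 8 passed the test (35.4% of the 12518 genes tested), with 5 higher (16.4%) and 3 lower (19%) in lymphatic-like cells. LAMA4 was 4.84 to 8.71 in lymphatic-like cells with a median of 6.06, and 0.543 to 1.4 in blood endothelial-like cells with a median of 1.17, so the ewes did not overlap (log2 fold change 2.44 ± 0.16, edgeR, adjusted p = 1.43e-07). LAMA5 went the other way, from 0.340 to 0.599 in blood endothelial-like cells and 0.0546 to 0.227 in lymphatic-like cells, again without overlap (-2.24 ± 0.27, adjusted p = 2.80e-05). The nidogens rose with LAMA4 in lymphatic-like cells, NID1 by 1.38 ± 0.19 (adjusted p = 1.19e-04) and NID2 by 0.77 ± 0.17, as did LAMB1 by 0.96 ± 0.16 and LAMC1 by 0.97 ± 0.18. Against the ESM1- and APLNR-led cluster alone, NID1 was lower in lymphatic-like cells in HLS3 (1.94 against 2.79), LLS2 and LLS3. It was higher in HLS1, HLS2 and LLS1. NID2 was lower in HLS1, LLS2 and LLS3 and higher in HLS2, HLS3 and LLS1. LAMA4 was higher in every ewe. That cluster held as few as 46 cells, in HLS3, and this pair was not tested. HSPG2 was 1.14 to 1.41 in lymphatic-like cells and 1.51 to 3.43 in blood endothelial-like cells, with a log2 value of -0.76 ± 0.16 (adjusted p = 0.00211). COL4A1 and COL4A2, the chains of the most widespread type IV collagen, were also lower in lymphatic-like cells (-2.19 ± 0.24 and -2.11 ± 0.29). LAMA2 was lower (-2.44 ± 0.46), on 1 to 7 UMI per ewe and 17 in all, and its mean level of 0.0357 in lymphatic-like cells was close to that in immune-like cells (0.0314). In LLS1 and HLS2 LAMA2 was low on both sides, with 0.00915 and 0.0180 in lymphatic-like against 0.0096 and 0.0240 in blood endothelial-like cells. LAMA1 did not pass the test (adjusted p = 0.286).

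**Figure D4:**
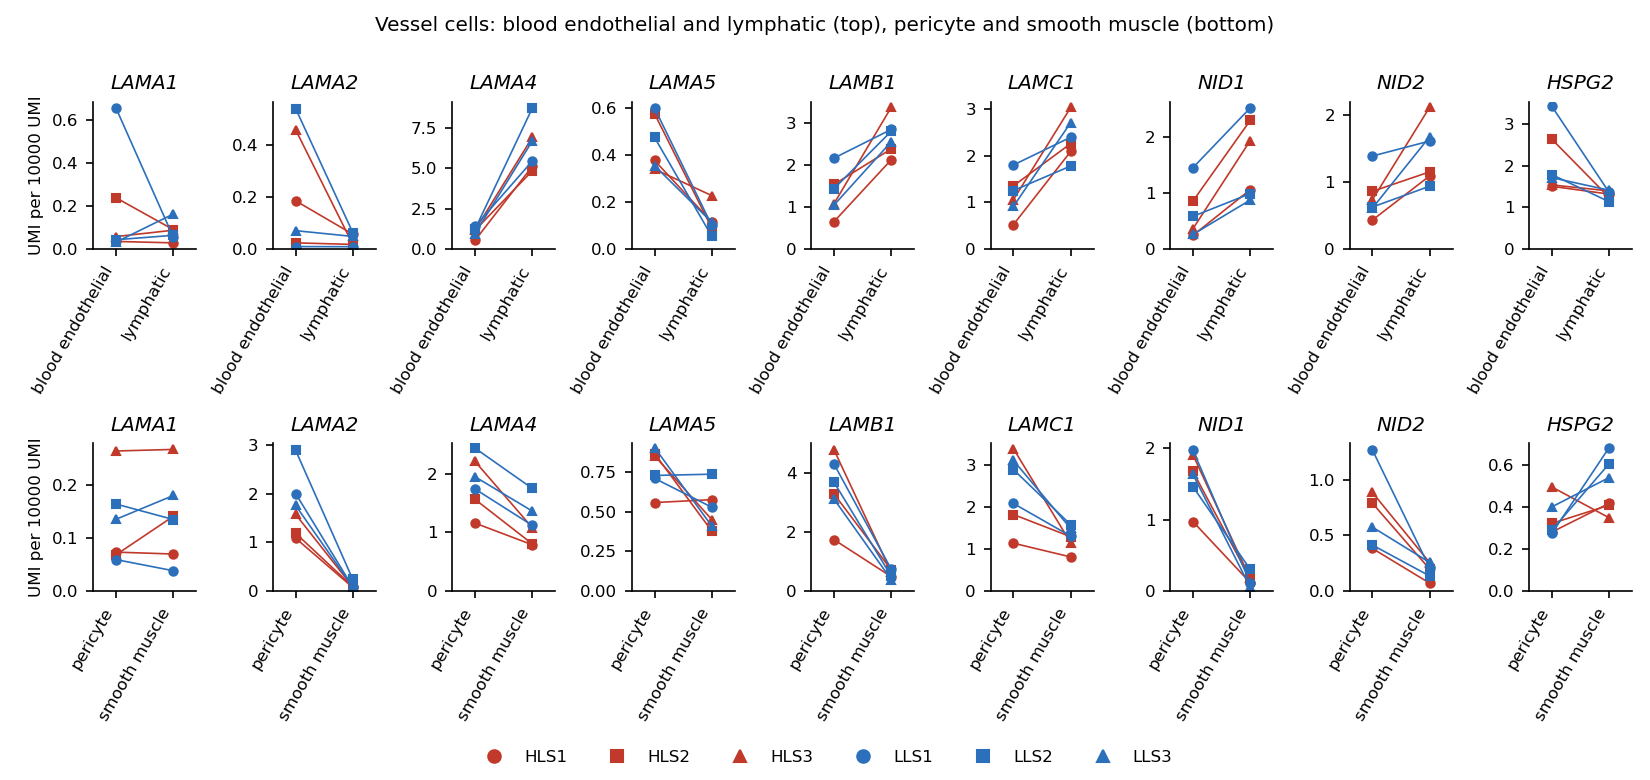
Level of each gene (UMI per 10000 UMI, linear axis from 0) in paired cell groups of the 6 ewes, each line joining the values of 1 ewe. LAMA4 rises and LAMA5 falls from blood endothelial- to lymphatic-like cells in all 6 ewes, and LAMA2, LAMB1, NID1 and NID2 fall from pericyte- to smooth muscle-like cells in all 6 ewes.

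The perivascular-like cells joined pericyte-like cells (1566 cells, led by RGS5 and HIGD1B) and smooth muscle-like cells (1187 cells, led by MYH11 and PLN). Of 9 members 8 passed the test (42.8% of the 7844 genes tested), 7 of them higher in pericyte-like cells (22%) and HSPG2 lower (20.8%). LAMA2 was 1.09 to 2.90 in pericyte-like cells with a median of 1.67 and 0.0693 to 0.235 in smooth muscle-like cells with a median of 0.0790. This was the largest difference among the members, at 4.06 ± 0.19 on the log2 scale (edgeR, adjusted p = 2.24e-11). NID1 was 0.972 to 1.97 and 0.0513 to 0.302 in the 2 groups (3.37 ± 0.21), and LAMB1 was 1.74 to 4.81 and 0.385 to 0.737 (2.5 ± 0.15). The ewes did not overlap in any of these 3 genes. LAMC1 and LAMA4 differed less, by 0.81 ± 0.14 and 0.65 ± 0.12. LAMA5 (0.56 ± 0.18, adjusted p = 0.0186) and HSPG2 (-0.61 ± 0.21, adjusted p = 0.0264) were near the threshold. LAMA5 did not pass without HLS2, HLS3 or LLS3 (adjusted p = 0.112, 0.0723 and 0.0695) and HSPG2 did not pass without LLS1 or LLS2 (adjusted p = 0.157 and 0.0545). With presumed doublets kept, HSPG2 moved to -0.29 (adjusted p = 0.192).

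Among 33 other genes of the basal lamina, 31 passed the filter on low counts. Perivascular-like cells were higher in 19 of the 31 and lower in 6 (26.3% and 25.6% of all genes). Endothelial-like cells were higher in 15 and lower in 12 (37.8% and 34.5%), and stromal-like cells higher in 12 and lower in 10 (20.9% and 18.8%). Granulosa-like cells were higher in 7 and lower in 16 (26.3% and 27.5%), and theca-like cells higher in 5 and lower in 19 (28.4% and 31.4%). The median log2 fold changes were 1.17, 0.31, 0.04, -0.80 and -0.74 in this order, against -0.04, 0.02, -0.02, -0.01 and -0.04 over all genes. COL4A1 had a level of 24.2 to 75.5 in perivascular-like and 11.2 to 64.6 in endothelial-like cells, and 1.61 to 6.0 in granulosa-like cells, where it stood at -3.12 ± 0.26 against the other types (log2, edgeR, adjusted p = 1.27e-10). COL4A2 was higher in perivascular-like cells (2.23 ± 0.18) and in endothelial-like cells (1.62 ± 0.19). COL18A1, the source of endostatin, was 4.87 to 12.7 in perivascular-like cells and at most 1.61 in any ewe of the other types (3.36 ± 0.15). AGRN, the proteoglycan agrin, was higher in endothelial-like cells (2.45 ± 0.11) and in perivascular-like cells (1.49 ± 0.13). LAMC3, the γ3 chain, was 1.04 to 1.55 in perivascular-like cells and 0.00397 to 0.0216 in endothelial-like cells (log2 fold change -4.86 ± 0.25).

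The receptors followed their own split. ITGA6, the α6 integrin that binds laminins, was 2.18 to 4.86 in endothelial-like and 1.59 to 4.29 in granulosa-like cells and at most 0.269 in any ewe of the other 3 types. It was higher in granulosa-like cells by 3.02 ± 0.16 (log2, edgeR, adjusted p = 1.19e-14). ITGA7, the α7 integrin of muscle, was 1.2 to 2.16 in perivascular-like cells and at most 0.0227 elsewhere, and its log2 fold change of 7.08 ± 0.14 was the largest of the list. ITGB4, the β4 integrin of hemidesmosomes, led in endothelial-like cells (5.26 ± 0.20), where BCAM, a receptor of the α5 chain, was higher too (2.37 ± 0.12). ITGB1, the common β1 integrin, was highest in perivascular-like cells (1.17 ± 0.07). DAG1, dystroglycan, was higher in granulosa-like (0.85 ± 0.10) and theca-like cells (0.85 ± 0.10) and lower in endothelial-like cells (-1.57 ± 0.12). Among the 2 genes of the list with the largest change in each type were, of the genes of binding and assembly, SMOC1 in granulosa-like cells (4.15 ± 0.38), LOXL2 in perivascular-like cells (4.78 ± 0.22) and in theca-like cells (-4.45 ± 0.48), and FBLN1 and SMOC2 in stromal-like cells (4.14 ± 0.16 and 3.58 ± 0.42).

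The genes most like each member were sought over the 30 sums of 5 types in 6 ewes, by Pearson's r of log2 CPM (counts scaled to the library) among 13912 genes. The sums of an ewe share a library and those of a type share their cells, so r is a description. LAMA1 was nearest to COL4A4 (r = 0.916), a chain of the other type IV collagen network, and its nearest member was LAMB1 at r = 0.0984. COL4A4, and COL4A3 (looked up after the likeness of COL4A4 was seen), were higher in granulosa-, theca- and stromal-like cells and lower in endothelial- and perivascular-like cells, the same directions as LAMA1. COL4A5 and COL4A6 did not share this order. COL4A5 had its highest mean in perivascular-like cells (1.16), with 0.429 in theca- and 0.231 in granulosa-like cells. COL4A6 was likewise highest in perivascular-like cells (0.548), with 0.138 and 0.108. LAMA2 was nearest to COLEC12 (0.909) and SOX6 (0.901), LAMA4 to ANXA5 (0.969) and ADGRA2 (0.969), and LAMA5 to NES (0.947) and VIM (0.933). LAMB1 and NID1 were both nearest to SPARC (0.884 and 0.934) and SH3PXD2A (0.880 and 0.922), and to each other among the members (0.860). LAMC1 was nearest to PEAK1 (0.934) and ROCK2 (0.922), NID2 to SELENOT (0.823) and STC1 (0.814), and HSPG2 to TAPBP (0.926) and APH1A (0.920).

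HLS and LLS ewes were compared within each type. No member passed the test in any type in 43 comparisons (edgeR, smallest adjusted p = 0.78), 5 had an unadjusted p below 0.05, and DESeq2 gave 0 and 3 (smallest adjusted p = 0.333). The background was 0% of genes called in each of the 5 types, while DESeq2 called 0 to 6 genes per type. With edgeR, 188 to 721 genes of a type had an unadjusted p below 0.05. This was 1.25% to 5.67% of the genes tested, and 3.04% in perivascular-like cells. LAMA5 was not tested in granulosa- and theca-like cells, where too few UMI were counted. The 5 values were those of LAMA2, LAMA4 and LAMC1 in perivascular-like cells, LAMA4 in stromal-like cells and NID2 in granulosa-like cells, all lower in HLS.

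**Figure D5:**
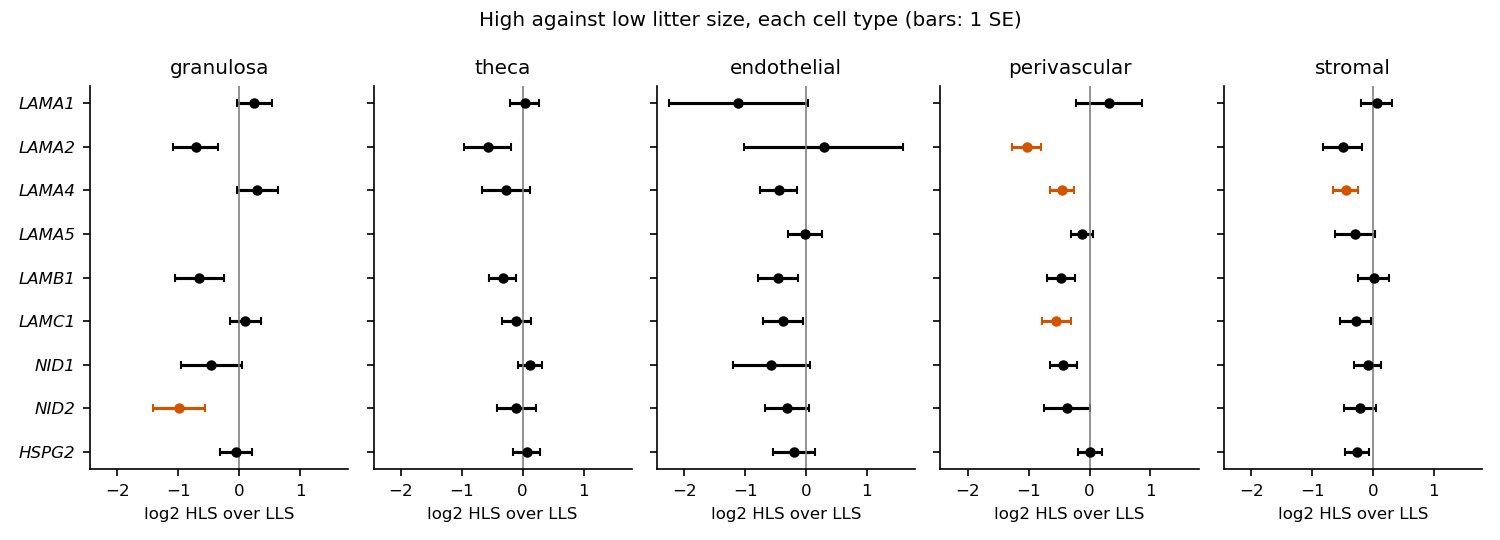
Log2 fold change of HLS over LLS ewes (x axis) for each gene in the 5 cell types, with bars of 1 SE and 3 ewes per group. Orange marks an unadjusted p below 0.05, and no value passed after adjustment over all genes.

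LAMA2 in perivascular-like cells was 0.875, 0.905 and 0.70 in HLS1, HLS2 and HLS3 and 1.71, 2.31 and 1.48 in LLS1, LLS2 and LLS3. The groups did not overlap, and the log2 fold change was -1.03 ± 0.24 (edgeR, unadjusted p = 0.00167, adjusted p = 0.99, and 0.168 to 1.0 over the alternatives). It lay between -1.16 and -0.84 when any ewe was left out, with -1.15 without HLS1. The perivascular-like cells of the ewes differed in make-up, with 80 pericyte- and 321 smooth muscle-like cells in HLS3 at one end and 282 and 102 in HLS1 at the other. In pericyte-like cells alone LAMA2 was 1.09, 1.19 and 1.58 in HLS and 2.01, 2.90 and 1.76 in LLS, again without overlap. LAMA4 and LAMB1 overlapped between the groups in pericyte-like cells, LAMA4 with 1.15 to 2.21 in HLS and 1.74 to 2.43 in LLS and LAMB1 with 1.74 to 4.81 and 3.13 to 4.32. In smooth muscle-like cells LAMA4 did not overlap, with 0.785 to 1.08 in HLS and 1.12 to 1.75 in LLS. LAMC1 and HSPG2 there were also lower in all HLS than in all LLS ewes. The other members overlapped there, among them LAMB1 and LAMA2, the latter on 3 to 7 UMI per ewe. No test of HLS against LLS was run within pericyte- or smooth muscle-like cells. LAMA4 in perivascular-like cells was 1.08, 1.36 and 1.54 in HLS and 1.64, 2.28 and 1.85 in LLS (-0.45 ± 0.20, adjusted p = 0.99), and -0.37 without HLS1. LAMC1 was 1.07, 1.68 and 2.07 in HLS and 1.96, 2.60 and 2.84 in LLS, with overlap of the groups (-0.55 ± 0.24, adjusted p = 0.99), and -0.37 without HLS1. In perivascular-like cells 3 of 9 members did not overlap between the groups on the normalised scale, and all 3 (LAMA2, LAMA4 and LAMB1) were lower in HLS, against 8.61% of all genes without overlap and 4.09% with HLS below. In stromal-like cells this held for LAMA4 alone (11.7% of genes without overlap, 5.29% with HLS below), and in the other 3 types for no member (5.27% to 11.2% of genes without overlap). On the scale of UMI per 10000 UMI, without TMM factors, all HLS ewes were also below all LLS ewes in LAMA2 in granulosa-like cells (0.0760, 0.0387 and 0.0559 against 0.0821, 0.112 and 0.105), in LAMA5 in granulosa-like cells and in HSPG2 in stromal-like cells, so that the number of members without overlap depends on the scaling.

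Of the 43 values, 32 were negative, against 49.6% to 50.9% of all genes in the 5 types. The count was 30 of 45 without HLS1, 40 of 44 without HLS3 and 29 of 44 without LLS1. Without TMM factors it was 39 of 43. The median log2 fold change of the members was lowest in perivascular-like cells (-0.43) and endothelial-like cells (-0.38), -0.26 in both granulosa- and stromal-like cells, and -0.10 in theca-like cells, against -0.01 to 0.00 over all genes. Members are measured in the same ewes and libraries, so that these values are not independent of each other. The endothelial-like values rest on different clusters in the ewes, as given above, and LAMA1 there was 0.109 ± 0.107 in HLS and 0.234 ± 0.335 (SD, n = 3) in LLS. The interaction of type and group, which asks whether a difference between HLS and LLS varied by type, passed for no member (edgeR, adjusted p = 1.0 for each, 0 members with an unadjusted p below 0.05) and for 0% of 13912 genes.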

How the data were processed

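Per the labels and file headers, the authors prepared 10x Genomics 3' v3 libraries and counted UMI per gene and barcode with Cell Ranger 5.0.0, and the deposited values are raw counts without normalization. The genome build is not given in the sources used here. Barcodes were kept with at least 200 genes, 1000 UMI, a log10 gene to log10 UMI ratio of 0.7, and at most 10% mitochondrial and 5% haemoglobin UMI. Presumed doublets, 0.8% per 1000 cells, were removed by nearness to simulated ones. Cells were clustered with Leiden (leidenalg 0.10.2, resolution 0.8, 2000 variable genes, 30 components, 20 neighbours) into 29 clusters, without batch integration. A cluster was named by the marker list that scored highest (mean z-score of its markers over clusters). The score had to be at least 1 and 0.2 above the next list, with at least 3 markers detected. The 10 leading genes also had to hold no more markers of another cell kind than of its own. A cluster of 4722 cells led by ACTA2 and TAGLN and one of 892 cells led by GCG and TIMP1 stayed unnamed and entered no type. The stromal list scored highest in the ACTA2-led cluster (2.07, margin 0.711). Of its 10 leading genes, 3 were perivascular or smooth muscle markers and 1 was a stromal marker. The granulosa list scored highest in the GCG-led cluster, but only at 0.690 with a margin of 0.0617. Also outside the types were 2 smaller unnamed clusters (144 and 108 cells) and 2 clusters of cycling cells (982, of them 465 from LLS1, and 767).

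UMI were summed per ewe and type where an ewe had at least 10 cells, and tested with edgeR 4.0.16 (TMM, filterByExpr, quasi-likelihood F test, Benjamini-Hochberg over all genes) in R 4.3.3. The ewe was a block except between HLS and LLS. DESeq2 1.42.0, other filters, other clusterings, sums thinned to equal depth and each ewe left out served as alternatives. The fit was tested on simulated data. All members were named, listed genes by counts with 8 preset genes and the 2 largest changes per type, and for each member the 2 most correlated genes. The members, the lists and the questions were chosen with earlier results of these data known. Each library is a separate ewe. Depth in a type ran from 1046303 UMI (theca-like) to 42795338 (endothelial-like) per ewe. The share of LAMB1 in the β chains was planned and not run, since LAMB2 was not analysed here.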

Additional observations from a re-analysis of the deposited data

Results flagged for a closer look

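Of 72 combinations of member and cell group with 6 ewes each, 8 held a single ewe whose gap to the nearest other ewe exceeded the 95% critical value of Dixon's test (0.625), where chance alone flags about 1 in 20. LAMA1 in endothelial-like cells was 0.621 UMI per 10000 UMI in LLS1 against 0.0353 to 0.232 in the other ewes. LLS2 was high in LAMA2 in theca-like cells (0.304 against 0.0840 to 0.134) and in smooth muscle-like cells (0.235 against 0.0693 to 0.0842), and in LAMA4 in theca-like cells (0.207 against 0.0672 to 0.118). HLS1 was high in LAMA4 in granulosa-like cells (0.127 against 0.0789 to 0.0937) and low in LAMC1 in stromal-like cells (0.406 against 0.882 to 1.11). HLS3 was high in LAMA5 in lymphatic-like cells (0.227 against 0.0546 to 0.115), and LLS1 in HSPG2 in stromal-like cells (1.01 against 0.549 to 0.717). Counts per ewe were low for LAMA2 in smooth muscle-like (3 to 7 UMI), LAMA5 in lymphatic-like (4 to 22) and LAMA4 in granulosa-like cells (12 to 54). The combinations share ewes, and some cell groups are parts of others, so they are not independent of each other. No member passed the test of the interaction of type and group (edgeR, unadjusted p = 0.239 to 0.863).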

How the results depend on the processing

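Of 132 single member values followed through those of 17 alternatives that applied to each, 115 kept their direction and their side of the threshold in each, 17 lost their call in at least 1, and none turned its direction. The count of members that differed from the other types (36 of 45) ranged from 34 to 38 over the other alternatives, and was 40 when the ACTA2-led cluster was joined to the stromal-like cells, an alternative chosen after seeing the data. In that alternative LAMB1 no longer differed between perivascular- and stromal-like cells (-0.47, adjusted p = 0.0613), and HSPG2 in granulosa- over theca-like cells was lost (adjusted p = 0.083). The count over pairs of types (75) ranged from 70, with sums thinned to equal depth, to 76. The α share count (31 of 40) ranged from 29 to 31, and leaving out an ewe was not run for it, since 5 ewes cannot pass the threshold. The lymphatic-like contrast kept 8 members throughout, and the pericyte-like contrast 6 to 8, with 6 under DESeq2 and with doublets kept. The counts between HLS and LLS and for the interaction were 0 in all alternatives run. The labels do not pair HLS and LLS ewes by replicate number. Same-numbered deviations correlated at -0.361 to 0.288, and the same number was the best match in 5 of 15 cases. With so few ewes this does not settle whether they were paired. With the replicate block 0 members passed. Low counts of LAMA5 and LAMA2 in follicular cells limit what can be read there, and thinning lost 8 calls.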

Other observations

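Some cells outside the 5 types carried the members at high levels. Schwann-like cells (138 cells, 10 to 39 per ewe, with CDH19 among the leading genes) had 2.91 ± 0.88 UMI per 10000 UMI of LAMA4 and 1.95 ± 0.50 of NID2 (SD, n = 6), and NID2 there was 1.21 to 2.75. These values come from few UMI, down to 19037 for all genes in HLS3. The unnamed cluster led by ACTA2 and TAGLN had LAMA2 at 1.41 ± 0.56, NID1 at 1.69 ± 0.42 and HSPG2 at 1.49 ± 0.54, and its LAMA1 of 0.774 ± 0.262 lay between the 2 stromal-like clusters. The unnamed GCG-led cluster combined LAMA1 at 0.769 ± 0.196 with LAMC1 at 1.2 ± 0.51 and HSPG2 at 1.02 ± 0.31. NID1 was at 0.0342 ± 0.0273 and LAMA4 at 0.0437 ± 0.0262, no higher than in immune-like cells (0.0532 and 0.0625). Median depth per ewe was 2254 to 4097 UMI in immune-like cells and 7675 to 13660 in this cluster. HTRA3, which the paper gives as a marker of mural granulosa cells, was among its leading genes. Its means lay above those of granulosa-like cells in LAMC1 (0.514 there), LAMA5 (0.144 against 0.0424), LAMB1 and HSPG2, and below them in the other members. No alternative joined this cluster to the granulosa-like cells, whose values leave it out. No test was run on these clusters.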
